A study of Mus musculus with 4 samples.

Results

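The 32 genes described here are Trp53, which encodes the transcription factor p53, and genes of its pathway: its negative regulators, and genes that p53 is known to switch on for cell-cycle arrest, cell death and DNA repair. They were chosen by gene symbol, each symbol matched 1 row, and they are 32 of the 54838 genes listed. The RNA came from Hepa1-6, a hepatoma line of the mouse. NC cells carried wild-type Acvr2a, the gene of a type II activin receptor, and KO cells were Acvr2a knockout subclones. No treatment or time point is given for either group. Each group had 2 libraries, and the labels do not say whether these came from separate subclones or separate cultures, so the p-values below measure the spread between these samples, which may be technical.

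In unstressed cells p53 is held at a low level by MDM2, which marks it for degradation, and by MDM4, which covers its activation domain. DNA damage, oncogene activity or ribosome stress frees p53, which then binds response elements made of a pair of half-sites and raises transcription of genes such as Cdkn1a and Mdm2. Because Mdm2 is itself a target, the pathway limits its own activity, and in liver it is known as a barrier to tumour growth.

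Half-sites of the p53 response element were searched in the RefSeq promoters of GRCm38.p6, each 250 bases before to 50 after a transcription start. The search used the 10-base p53 half-site consensus, which reads alike on both strands. Promoters were found for 23 of the 32 genes (31 promoters), and 12 of the 23 genes held at least 1 half-site (52.2%), against 9.55% of all genes and 8.20% of the genes tested here. Over single promoters the share was 41.9% for the p53 pathway genes and 8.36% for all 32851. The genes were listed as known genes of the p53 pathway, so this contrast may follow from that choice. It is not a result about KO and NC. The Cdkn1a promoter is shown in full to its start because it held a pair of half-sites 12 bases apart, an arrangement (a spacer of up to 13 bases) that 24 of all promoters held (0.0731%). The second half-site lies 51 bases before the upstream start of Cdkn1a. The search allowed no mismatch. The 10 bases directly after this half-site depart from the consensus only in their first letter, and so are not marked. The marked pair is therefore not the only possible pairing in this promoter, and which pairing p53 binds was not tested. The printed stretch is chr17:29090729-29090978 on the plus strand, with the half-sites in capitals.
Cdkn1a: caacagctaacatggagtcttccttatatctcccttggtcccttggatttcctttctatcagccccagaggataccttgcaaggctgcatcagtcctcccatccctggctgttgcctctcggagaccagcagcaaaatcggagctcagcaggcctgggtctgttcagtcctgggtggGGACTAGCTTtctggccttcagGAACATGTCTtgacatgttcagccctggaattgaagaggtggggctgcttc

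Windows of 50 bases around the half-site are shown for the other genes with a half-site whose expression differed between the groups, and for Ccng1, a classical p53 target, for comparison. The half-site is again in capitals. They lie at chr10:117710915-117710964 on the minus strand for Mdm2, chr11:69580264-69580313 on the plus strand for Trp53, chr6:67037418-67037467 on the minus strand for Gadd45a, chr7:45467070-45467119 on the minus strand for Bax and chr11:40755442-40755491 on the minus strand for Ccng1.
Mdm2: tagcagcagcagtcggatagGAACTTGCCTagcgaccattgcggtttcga
Trp53: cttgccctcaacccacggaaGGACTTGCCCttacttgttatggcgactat
Gadd45a: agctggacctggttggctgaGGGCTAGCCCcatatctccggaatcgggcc
Bax: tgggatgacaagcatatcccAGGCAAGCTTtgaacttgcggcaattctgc
Ccng1: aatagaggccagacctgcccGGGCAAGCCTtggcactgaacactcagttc
The half-site begins 186 bases before the start in Mdm2, 75 in Trp53, 40 in Gadd45a, 201 in Bax and 185 in Ccng1. Of the 12 genes with a half-site in a searched promoter, 5 passed the test described below. Of the 11 without an exact match there, 5 did, where 37.9% of all genes tested passed. Sites outside the searched promoters, such as in introns further downstream, were not looked for. A match describes letters in this window and is not a measured binding site.

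Library totals lay between 11597951 and 13910602 counts. All 32 genes passed the filter on low counts, which left 12510 genes to test. Acvr2a itself, counted over the whole gene, was at 7.12 and 7.80 CPM (counts scaled to library size) in the NC libraries and at 5.69 and 7.18 CPM in the KO libraries. These overlapped (log2 fold change -0.21, SE 0.20, adjusted p = 0.433 by edgeR), so the RNA level of the targeted gene did not separate the groups, which are named here as labelled. It overlaps exons of Orc4 on the other strand. Of the 8 hepatoma and hepatocyte markers 6 were tested and 5 passed (83.3% called against 37.9% of all genes). Afp (log2 fold change -1.21), Hnf4a (-0.995) and Fgb (-0.75) were lower in KO, and Trf (0.54) and Alb (0.41) were higher. Alb, Afp, Trf and Hnf4a had mean levels between 111 and 1058 CPM, Apoa1 was near 2 CPM, and Ttr and Serpina1a had at most 5 counts in any library. Of the leukocyte markers, Cd3e was at 0 and Ptprc had at most 2 counts per library. Among the endothelial markers Cdh5 and Tek were at 0, Kdr had at most 1 count per library and Pecam1 had 4 to 13. Over the 6 leukocyte markers the summed level was 22.4 and 24.8 CPM in NC and 47.9 and 61.0 CPM in KO, nearly all of it Cd68. Over the 6 fibroblast and stellate markers it was 16.7 and 15.7 CPM in NC and 34.7 and 36.8 CPM in KO, where Pdgfra, Des and Col1a1 were higher and Lrat was at 0. The part of these markers in the results below was not tested.

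Trp53 RNA was lower in KO, while 13 other genes of its pathway were higher, among them the inhibitors Mdm2 and Mdm4, the CDK inhibitor Cdkn1a, the growth-arrest gene Gadd45a and the death genes Pmaip1 and Fas. Bax was the other gene that fell. In all, 15 of the 32 genes (46.9%) had an adjusted p under 0.05 (quasi-likelihood test of edgeR), of which 13 were higher and 2 lower in KO, where 37.9% of all genes tested passed, 19.7% higher and 18.2% lower. The median log2 fold change was 0.23 over the 32 genes and -0.0037 over all genes tested. The 32 genes were chosen with earlier results of these data known, so these shares and medians are descriptions. More than 2-fold change among the calls was seen for 4 of the 32, Gadd45a, Fas, Trp53inp1 and Pmaip1, all higher, against 6.85% of all genes. The KO libraries lay both above the NC libraries for 18 genes and both below for 5, together 71.9%, where 69.4% of all genes tested did not overlap, so this share was near the background. In what follows levels are CPM of the TMM-scaled library, and each adjusted p is that of edgeR over all genes tested. In these bulk samples, more RNA per cell and more cells expressing a gene cannot be told apart.

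**Figure D1:**
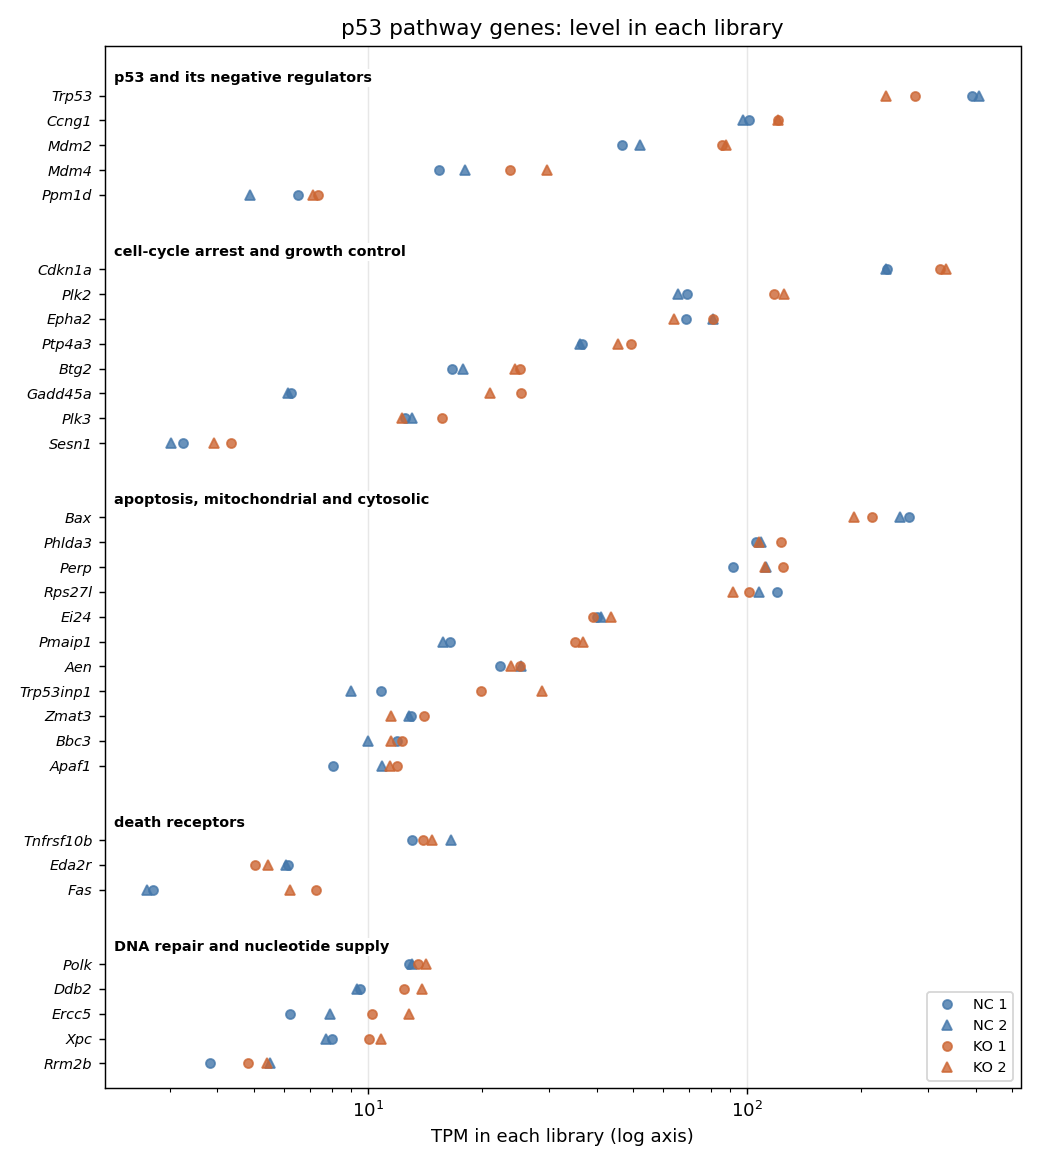
Level of each p53 pathway gene in each library, as the authors' TPM on a log axis, grouped by role and sorted by mean level within a role. Circles and triangles are replicates 1 and 2 of NC (blue) and KO (orange). Trp53 has the highest mean level, 327 TPM, and Sesn1 the lowest, 3.63 TPM.

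Levels between genes were compared per length, as the authors' TPM. Trp53 (mean over the 4 libraries 327 TPM), Cdkn1a (281 TPM) and Bax (231 TPM) had the highest levels of the 32 genes. Next came Phlda3, Perp, Ccng1 and Rps27l, between 105 and 111 TPM. Sesn1 (3.63 TPM), Fas (4.70 TPM) and Rrm2b (4.89 TPM) had the lowest. Every one of the 32 genes had counts in each of the 4 libraries.

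Trp53 (ENSMUSG00000059552.13, chromosome 11, 69580359 to 69591873, plus strand, GRCm38) was at 549 and 553 CPM in the NC libraries and at 360 and 313 CPM in the KO libraries. Both KO libraries lay below both NC libraries, and the NC pair differed far less than the KO pair. The mean fell from 551 ± 2.87 to 337 ± 32.9 CPM (SD, n = 2), which is a log2 fold change of -0.71 (95% interval -0.91 to -0.52, adjusted p = 1.45e-06, SE 0.09).

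Mdm2 (chromosome 10, 117688875 to 117710758, minus strand), the ubiquitin ligase that both inhibits p53 and is induced by it, was at 107 and 104 CPM in NC and at 167 and 173 CPM in KO. The groups stood clear of each other, and each pair of replicates was close. The log2 fold change was 0.69 (adjusted p = 1.57e-06, SE 0.09), a 1.61-fold rise. Mdm4 (chromosome 1, 132959484 to 133030561, minus strand), the related inhibitor that lacks ligase activity of its own, was at 73.4 and 76.8 CPM in NC and at 99.9 and 130 CPM in KO. KO 2 was the higher of the KO pair, and both lay above NC. The log2 fold change was 0.62 (adjusted p = 5.17e-05, SE 0.11) and 0.41 without KO 2, where the call held (adjusted p = 0.00166).

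The other negative regulators did not pass. Ppm1d, a phosphatase that turns off p53 and the kinases upstream of it, was at 16.4 and 11.6 CPM in NC and at 16.9 and 17.1 CPM in KO, with a log2 fold change of 0.30 (95% interval -0.03 to 0.62, adjusted p = 0.140). NC 1 was close to the KO libraries and NC 2 well below them. Without NC 1 the value was 0.56 and passed (adjusted p = 0.0209), and without NC 2 it was 0.063 (adjusted p = 0.836). Ccng1, which encodes cyclin G1, an activator of MDM2 through a phosphatase, was at 311 and 285 CPM in NC and at 340 and 355 CPM in KO. Its log2 fold change of 0.22 (95% interval 0.03 to 0.41) missed the threshold (adjusted p = 0.0559) and passed without KO 1 (0.26, adjusted p = 0.0430).

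**Figure D2:**
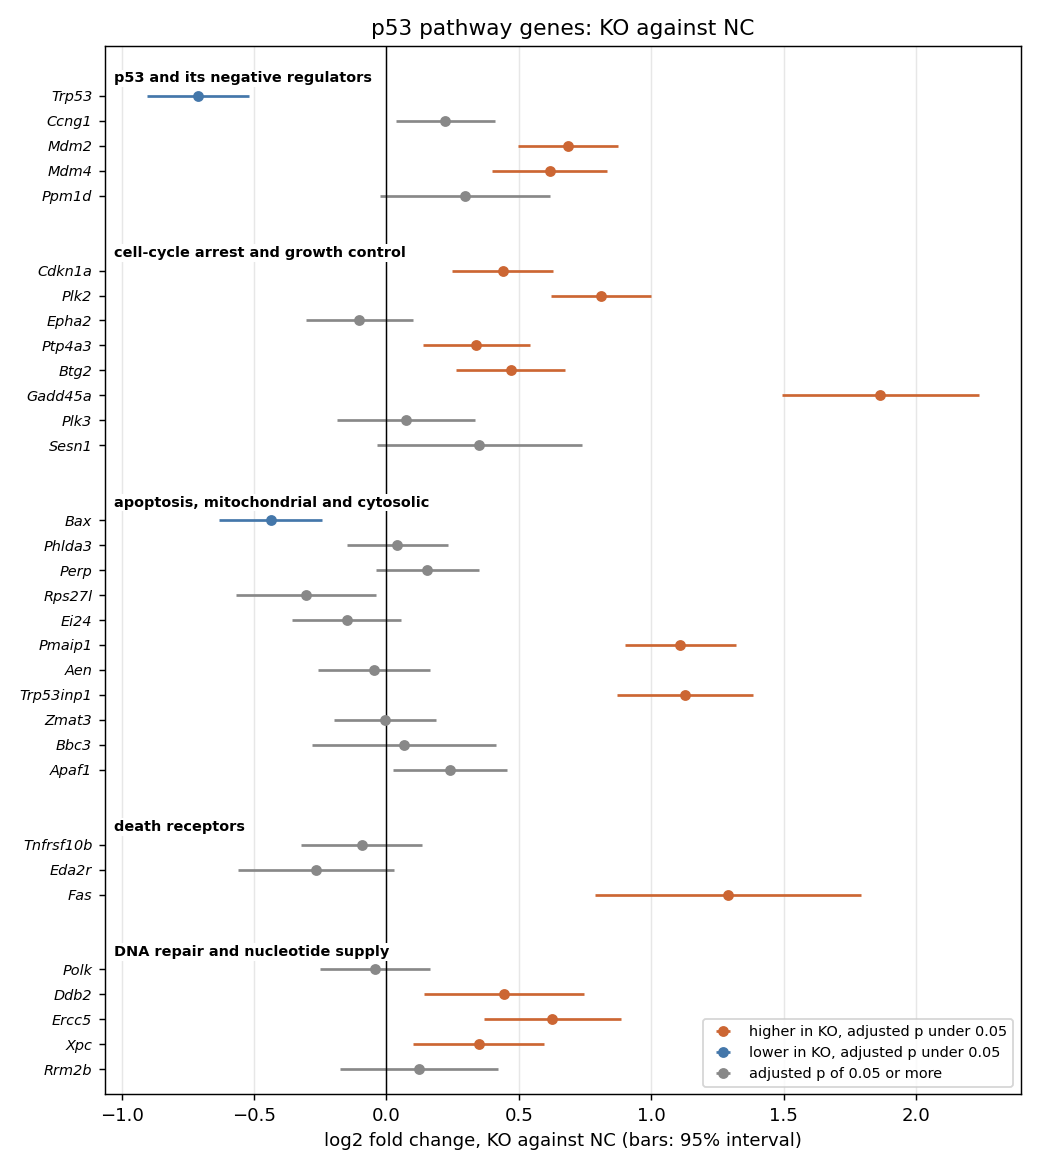
Log2 fold change of each p53 pathway gene between KO and NC, with bars for the 95% interval, in the same order as the plot of levels. Orange marks the 13 genes higher in KO, blue the 2 lower in KO (Trp53 and Bax) and grey the genes with an adjusted p of 0.05 or more. Gadd45a stands farthest to the right at 1.86.

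Among genes of cell-cycle arrest and growth control, 5 of 8 rose and 0 fell, where 19.7% of all genes rose and 18.2% fell, with a median log2 fold change of 0.39. Cdkn1a (chromosome 17, 29090976 to 29100727, plus strand) encodes p21, the CDK inhibitor through which p53 stops the cell cycle. It was at 367 and 347 CPM in NC and at 465 and 502 CPM in KO, so both KO libraries were higher. Its log2 fold change was 0.44 (adjusted p = 0.000473, SE 0.09), a 1.36-fold rise. It overlaps exons of AC167363.2 on the other strand.

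Gadd45a (chromosome 6, 67035096 to 67037457, minus strand), a stress-induced inhibitor of CDK1 and activator of p38 signalling, changed most of the 32 genes. It was at 5.37 and 4.40 CPM in NC and at 18.5 and 16.9 CPM in KO, from 61 counts in each NC library and 244 and 228 in KO. The replicates of each group were close beside the gap between groups. The rise was 3.64-fold, a log2 fold change of 1.86 (95% interval 1.49 to 2.24, adjusted p = 4.98e-09, SE 0.18). It overlaps exons of E230016M11Rik on the other strand. Whether the counting used strand is not given in the sources used here, so reads of such partners may be mixed.

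Plk2, a polo-like kinase active in G1 and induced by p53, was at 144 and 139 CPM in NC and at 236 and 260 CPM in KO. Its log2 fold change was 0.81 (adjusted p = 1.25e-07, SE 0.09). Btg2, an antiproliferative gene whose product promotes mRNA deadenylation, was at 39.2 and 39.7 CPM in NC and at 54.3 and 55.1 CPM in KO, the closest replicates of the genes that rose. Its log2 fold change was 0.47 (adjusted p = 0.000535, SE 0.10). Ptp4a3, which encodes the phosphatase PRL-3, was at 54.6 and 50.04 CPM in NC and at 67.9 and 64.4 CPM in KO, a log2 fold change of 0.34 (adjusted p = 0.00769, SE 0.10). Its call was lost without NC 2 (0.28, adjusted p = 0.0914) and in both filtered fits on TPM (adjusted p = 0.0569 and 0.0577).

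In the same group Sesn1, whose product restrains mTORC1, was above NC in both KO libraries (9.34 and 8.74 against 7.56 and 6.64 CPM) with a log2 fold change of 0.35, but its interval of -0.04 to 0.74 included 0 (adjusted p = 0.146). Few counts stood behind it, between 86 and 123 per library. Plk3, a stress-response kinase, had a log2 fold change of 0.075 (95% interval -0.19 to 0.34), and the receptor tyrosine kinase gene Epha2 had -0.10 (95% interval -0.31 to 0.10). The libraries of the groups overlapped for both, and exons of Plk3 overlap Tctex1d4 on the other strand.

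Of the 11 genes grouped under mitochondrial and cytosolic apoptosis, 2 rose, 1 fell and 8 did not pass (27.3% called against 37.9% of all genes), with a median log2 fold change of 0.041. The group is broad and also holds genes described below by other roles, such as Zmat3, Rps27l and Ei24. Its share is therefore not that of the mitochondrial pathway alone. Pmaip1 (chromosome 18, 66458533 to 66465565, plus strand) encodes NOXA, a BH3-only protein that neutralises MCL1. It was at 37.1 and 33.9 CPM in NC and at 72.9 and 80.0 CPM in KO. Both KO libraries were far above both NC libraries, and the log2 fold change was 1.11 (adjusted p = 3.30e-09, SE 0.10).

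Trp53inp1 (chromosome 4, 11156431 to 11174379, plus strand), which promotes p53 phosphorylation and autophagy, was at 52.0 and 39.9 CPM in NC and at 84.0 and 116 CPM in KO. Its replicates differed more than those of the other genes that rose, yet the groups did not overlap. The log2 fold change was 1.13 (adjusted p = 8.78e-08, SE 0.13) and stayed between 0.88 and 1.35 when any 1 library was left out.

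Bax (chromosome 7, 45461697 to 45466898, minus strand), the pore-forming effector of mitochondrial apoptosis, was at 177 and 156 CPM in NC and at 127 and 119 CPM in KO. Both KO libraries were lower. The fall from 166 ± 14.4 to 123 ± 5.83 CPM (SD, n = 2) was a log2 fold change of -0.44 (adjusted p = 0.000634, SE 0.09), and the call was lost on log2(TPM + 0.1) (adjusted p = 0.0509). Bax shares exon positions with Gm45808 on the same strand, so reads may be divided between them. Bax and Pmaip1 moved in opposite directions in the same libraries.

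Bbc3, which encodes PUMA, the BH3-only protein most closely tied to p53-dependent death, was at 12.5 and 10.2 CPM in NC and at 13.3 and 10.4 CPM in KO. The groups overlapped, and the log2 fold change of 0.067 had an interval of -0.28 to 0.42 (adjusted p = 0.793). Apaf1, the scaffold of the apoptosome, was at 47.6 and 59.3 CPM in NC and at 63.6 and 63.0 CPM in KO (log2 fold change 0.24, adjusted p = 0.0718). It passed without NC 2 (0.42, adjusted p = 0.0117), and was 0.095 without NC 1.

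Zmat3, an RNA-binding regulator of splicing, was at 71.3 and 73.7 CPM in NC and at 71.7 and 72.8 CPM in KO, with a log2 fold change of -0.0053 (95% interval -0.20 to 0.19). Phlda3, an inhibitor of AKT, had 0.041 (95% interval -0.15 to 0.23), and Aen, an apoptosis-enhancing nuclease, had -0.047 (95% interval -0.26 to 0.16). For these 3 genes the groups overlapped. Perp, a membrane protein gene of desmosomes and of apoptosis, had a log2 fold change of 0.15 (95% interval -0.04 to 0.35), and the NC 2 level of 171 CPM was next to the 172 CPM of KO 2. Rps27l, a ribosomal protein paralog of Rps27 with which reads may be shared, had -0.30 (95% interval -0.57 to -0.04, adjusted p = 0.0643), and passed without NC 2 (-0.42, adjusted p = 0.0368). Ei24, an endoplasmic reticulum protein gene, had -0.15 (95% interval -0.36 to 0.06). The authors' transcript length for Ei24, weighted by isoform, was 2197 and 2209 bases in NC and 2016 and 2059 bases in KO, and on the log2(TPM + 1) scale, which divides by length, its value was 0.028. Ei24 overlaps exons of Gm26787 on the other strand.

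Of the 3 death receptors, 1 rose (33.3% called, near the 37.9% of all genes). Fas (chromosome 19, 34290666 to 34327772, plus strand), whose product triggers caspase-8 when it binds FAS ligand, was at 3.17 and 2.89 CPM in NC and at 7.82 and 6.96 CPM in KO. The counts were low, 36 and 40 in NC and 103 and 94 in KO, but the groups stood far apart beside the replicate spread. The rise was 2.44-fold (log2 fold change 1.29, SE 0.24, adjusted p = 0.000130). Tnfrsf10b, the TRAIL receptor of the mouse, had a log2 fold change of -0.094 (95% interval -0.32 to 0.14), and Eda2r, a receptor for ectodysplasin A2, had -0.27 (95% interval -0.56 to 0.03, adjusted p = 0.145) with both KO libraries below NC.

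Of the 5 genes of DNA repair and nucleotide supply, 3 rose, where 19.7% of all genes rose, and the calls for Ddb2 and Xpc were lost under 6 of 11 alternatives. Ercc5 (chromosome 1, 44147744 to 44181260, plus strand), which encodes XPG, the nuclease that cuts on the 3′ side of the lesion, was at 18.8 and 19.8 CPM in NC and at 28.5 and 31.2 CPM in KO. Both KO libraries were higher, by a log2 fold change of 0.63 (adjusted p = 0.000293, SE 0.13).

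Ddb2, a damage sensor for ultraviolet lesions, was at 14.2 and 13.2 CPM in NC and at 16.8 and 20.4 CPM in KO (log2 fold change 0.44, SE 0.15, adjusted p = 0.0187). Xpc, the damage recognition factor of global repair, was at 25.7 and 23.6 CPM in NC and at 29.6 and 33.1 CPM in KO (log2 fold change 0.35, SE 0.12, adjusted p = 0.0233). The calls for both were lost with DESeq2 (adjusted p = 0.106 for Ddb2 and 0.105 for Xpc), without NC 2 (0.114 and 0.146), without KO 2 (0.224 and 0.163) and on TPM. Without KO 2 the log2 fold change of Ddb2 was 0.30. Ddb2 overlaps exons of Acp2 on the other strand.

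Neither other gene of this group passed. Polk, a translesion DNA polymerase gene, had a log2 fold change of -0.044 (95% interval -0.25 to 0.16), and Rrm2b, the p53-inducible subunit of ribonucleotide reductase, had 0.12 (95% interval -0.17 to 0.42). Their libraries overlapped between groups, and Rrm2b overlaps exons of Gm49085 on the other strand.

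**Figure D3:**
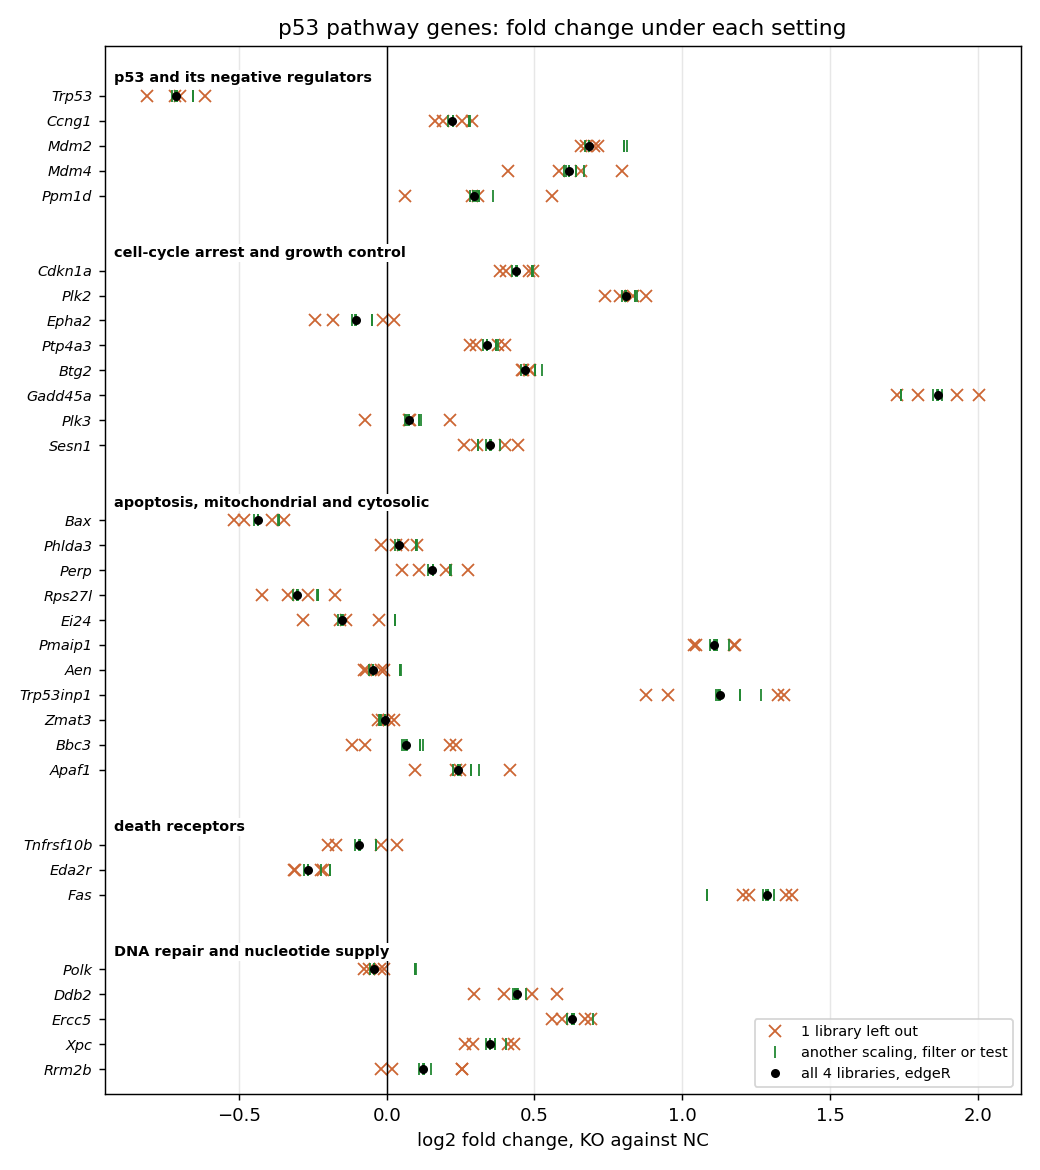
Log2 fold change of each p53 pathway gene with all 4 libraries in edgeR (black points), with 1 library left out (orange crosses) and under another scaling, filter or test (green ticks). The crosses of Trp53inp1 run from 0.88 to 1.35 and those of Bbc3 from -0.12 to 0.24, across 0.

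Other genes of the pathway were taken from lists written from general knowledge, but with earlier results of these data known. Their shares and medians are therefore descriptions. Of 25 genes that regulate p53 23 were tested, and 4 rose and 2 fell (26.1% called against 37.9% of all genes). One of the 4, Trp53bp1, named after its values were seen, had 0.32 in counts (adjusted p = 0.0110) but -0.35 on log2(TPM + 1) (adjusted p = 0.228), so its direction turned with the unit. Ppp1r13b, which encodes the p53 cofactor ASPP1, rose by 0.80 on the log2 scale (adjusted p = 3.45e-05, SE 0.13), from 15.0 ± 1.11 to 26.3 ± 1.74 CPM (SD, n = 2). Ppp1r13l, which encodes the inhibitory relative iASPP, rose by 0.38 (adjusted p = 0.00611), a call lost without NC 1 (0.26, adjusted p = 0.131). Topors, a ubiquitin and SUMO ligase gene that acts on p53, rose by 0.47 (adjusted p = 0.000444). Chek1, the checkpoint kinase of replication stress, fell by 0.85 (log2 fold change -0.85, adjusted p = 0.000165), from 16.5 ± 0.73 to 9.16 ± 1.75 CPM. The 2 untested genes were the p53 relatives Trp63, with 2 to 7 counts per library, and Trp73, with 0 counts in every library, both named after their values were seen. Topors overlaps exons of Smim27 on the other strand.

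Of 44 further p53 targets 40 were tested, and 15 rose and 5 fell, where 19.7% of all genes rose and 18.2% fell, with a median log2 fold change of 0.16. Ephx1, a microsomal epoxide hydrolase gene, rose by 0.83 on the log2 scale (adjusted p = 7.57e-08), and the stress cytokine gene Gdf15 rose by 0.81 (adjusted p = 8.81e-06). Fbxo22, an F-box gene whose product degrades methylated p53, fell from 43.8 ± 4.91 to 25.4 ± 1.62 CPM (SD, n = 2), which is a log2 fold change of -0.78 (adjusted p = 6.47e-06, SE 0.12). Exons of Ephx1 overlap Gm36961 on the same strand and those of Fbxo22 overlap Nrg4 on the other. On log2(TPM + 1) with the filter 11 of the 40 passed, where 17.3% of all genes passed.

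Of 24 cell-cycle genes that p53 represses through p21 and the DREAM complex, all tested, 9 fell, 1 rose and 14 did not pass (41.7% called against 37.9% of all genes, of which 18.2% fell), and 20 had a negative log2 fold change, with a median of -0.21. Mcm5, a subunit of the replicative helicase, fell from 147 ± 9.26 to 85.4 ± 18.8 CPM (SD, n = 2), which is a log2 fold change of -0.78 (adjusted p = 3.76e-06, SE 0.11). Plk1, the kinase of mitotic entry, had -0.56 (adjusted p = 5.93e-05) and Cdc20, an activator of the anaphase-promoting complex, -0.49 (adjusted p = 0.000501). Cenpf, a kinetochore gene, was the 1 that rose, by 0.65 (adjusted p = 4.35e-06). On log2(TPM + 1) with the filter 3 of the 24 passed, where 17.3% of all genes passed. Plk1 and Cdc20 overlap exons of Gm44985 and Elovl1 on the other strand.

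In the BCL-2 family and the caspases, 17 of 19 genes were tested, and 1 rose and 4 fell (29.4% called, below the 37.9% of all genes), with a median of -0.083. Bmf, a BH3-only gene, rose by 1.27 (adjusted p = 3.83e-06, SE 0.18), from 6.58 ± 1.14 to 15.8 ± 2.85 CPM (SD, n = 2). Bak1, whose product forms pores as BAX does, fell by 0.51 (log2 fold change -0.51, adjusted p = 7.49e-05), and Cycs, cytochrome c, by 0.43 (log2 fold change -0.43, adjusted p = 0.000842). Bid, which links death receptors to BAX and BAK, had -0.37 (adjusted p = 0.00661), and its call was lost without NC 1 (adjusted p = 0.0671). On log2(TPM + 1) with the filter 2 of the 17 passed, where 17.3% of all genes passed. Bak1 and Bid overlap exons of Ggnbp1 and Bcl2l13 on the other strand.

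In the list of other CDK inhibitors, cyclins and RB genes, 14 of 16 were tested, and 2 rose and 5 fell, where 19.7% of all genes rose and 18.2% fell, with a median of -0.19. Cdk4 fell from 706 ± 49.9 to 486 ± 20.5 CPM (SD, n = 2), which is a log2 fold change of -0.54 (adjusted p = 6.25e-05, SE 0.09). Cdkn2c, which encodes the CDK4 inhibitor p18, fell by 0.62 (log2 fold change -0.62, adjusted p = 0.000146), while Rb1, the retinoblastoma gene, rose by 0.73 (adjusted p = 0.000218). Ccne2, cyclin E2, had -0.65 in counts (adjusted p = 0.000102) but 0.037 on log2(TPM + 1) (adjusted p = 0.929), so its direction depended on the unit. Cdk4, Ccne2 and Rb1 overlap exons of other genes on the other strand. On log2(TPM + 1) with the filter 4 of the 14 passed, where 17.3% of all genes passed.

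**Figure D4:**
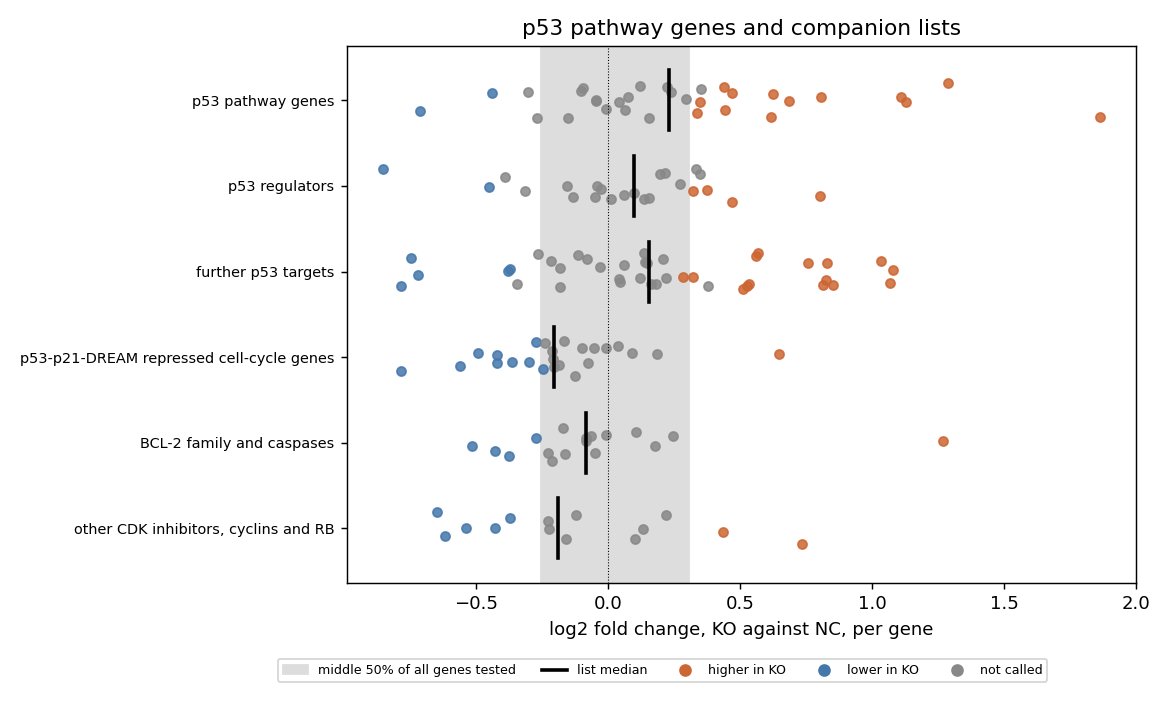
Log2 fold change, KO against NC, of each tested gene in the p53 pathway group and in the 5 companion lists. Colours mark genes higher (orange) or lower (blue) in KO past an adjusted p of 0.05, the black bar is the list's median, and the grey band holds the middle 50% of all genes tested, from -0.25 to 0.31. The median of the p53 pathway genes, 0.23, and those of the other lists, from -0.21 to 0.16, lie inside that band.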

How the data were processed

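Gene expression was measured by RNA-seq in 4 libraries, 2 NC and 2 KO. The authors' expected counts are estimated counts per gene, not normalised, and their TPM values are scaled for transcript length, per the file headers. FastQC, STAR, RSEM, DESeq2 and the builds GRCm38 and mm10 are named in the submitters' processing notes, without versions, and the strand setting is not given in the sources used here. The authors' transcript length is reported for Ei24 alone, and FPKM was not used. Coordinates are from GENCODE M21 (GRCm38), which holds 54809 of the gene IDs when the version at the end of the ID is ignored. Pmaip1 and Fas have another version there.

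Expected counts were rounded. Genes were kept with edgeR's filterByExpr (minimum count 10), scaled by TMM and compared with the quasi-likelihood test (edgeR 4.0.16, R 4.3.3), group as the only term, Benjamini-Hochberg adjusted over all genes tested, threshold 0.05. Standard errors and 95% intervals come from the fitted weights, cover counting error and replicate spread only, and with 2 samples a group rest on spread shared across genes. The script was tested on simulated data. The alternatives used limma 3.58.1 on log2(TPM + pseudocount of 1 or 0.1), DESeq2 1.42.0, another scaling, no filter, a replicate block and each library left out. No companion list was tested as a set.

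Named genes are all 32 members, at most 4 genes with the lowest p past 0.05 in each companion list, and Acvr2a, except for items not reported here. Members and lists were chosen with earlier results of these data known.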

Additional observations from a re-analysis of the deposited data

How the results depend on the processing

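Trp53, Mdm2, Mdm4, Cdkn1a, Gadd45a, Btg2, Plk2, Pmaip1, Trp53inp1, Fas and Ercc5 kept their direction and passed under 10 of 11 alternatives, the exception being the fit on log2(TPM + 1) with no filter. That fit called 0 of 20604 genes in limma (4504 at an unadjusted p under 0.05), and so 0 of the p53 pathway genes, higher or lower (16 at an unadjusted p under 0.05), and 0 in each companion list; the cause was not tested. With the filter, log2(TPM + 1) and log2(TPM + 0.1) called 2158 and 2099 genes (17.3% and 16.8% of those tested) in place of 4741 (37.9%). Of the p53 pathway genes they called 12 and 11, with 2 and 1 lower and a median of 0.28 and 0.30 (0.28 unfiltered), beside a median of all genes of 0.060 and 0.070. They called 11 and 11 further p53 targets in place of 20, 3 and 3 cell-cycle genes in place of 10, 2 and 2 of the BCL-2 family in place of 5, and on log2(TPM + 1) 4 of the CDK inhibitor list in place of 7. DESeq2 called 3217 genes and 13 p53 pathway genes, all 13 among the 15.

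Leaving out 1 library gave 3583 to 4474 genes, 13 to 16 p53 pathway genes (11 to 14 higher, 2 to 3 lower), a median of 0.24 to 0.26, and 3 to 6 of the BCL-2 family. Values near 0 changed sign for genes that never passed. On log2(TPM + 1), log2(TPM + 0.1) and unfiltered log2(TPM + 1), Aen had 0.046, 0.048 and 0.046, Ei24 0.028, 0.028 and 0.028, and Polk 0.095, 0.10 and 0.095. Among the called genes of the p53 pathway group and the lists, Ccne2 (0.037, 0.037 and 0.037 on these scales) and Trp53bp1 (-0.35 on log2(TPM + 1)) changed sign. With 1 library left out, Bbc3 ran from -0.12 to 0.24, Epha2 from -0.24 to 0.026, Phlda3 from -0.019 to 0.10, Plk3 from -0.075 to 0.21, Rrm2b from -0.020 to 0.25, Tnfrsf10b from -0.20 to 0.033 and Zmat3 from -0.028 to 0.025.

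The replicate numbers are shared by the groups, but deviations of same-numbered samples did not go together (correlation -0.0049). With 2 libraries a group, this value cannot tell whether same-numbered samples were paired. With the replicate block 5007 genes passed and 17 p53 pathway genes (14 higher, 3 lower), with Apaf1 (0.25, adjusted p = 0.0385) and Rps27l (-0.30, adjusted p = 0.0457) added. Of the 17 p53 pathway genes that did not pass, Sesn1, Ppm1d, Bbc3, Eda2r and Rrm2b had the widest 95% intervals. Their counts ran from 86 to 270 per library, and what part depth had in the width was not tested.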
